A study of Mus musculus with 6 samples.

Results

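AP-1 is a family of transcription factors that bind DNA as dimers, and 10 of its genes were followed in mouse macrophages after knockdown of NCOA4. They were picked by name from the 55487 gene identifiers measured: Fos, Fosb, Fosl1 and Fosl2 of the Fos type, Jun, Junb and Jund of the Jun type, the small Maf genes Maff and Mafk, and Batf. J774 is an established mouse macrophage line, grown in serum-containing medium, and every library came from it with no other genotype involved. The control group was transfected with a negative control siRNA and the knockdown group with an siRNA against NCOA4, the cargo receptor that carries ferritin to the lysosome, both delivered with liposomes, with 3 biological replicates of each. A single NCOA4 siRNA was used, no red blood cells or iron compounds are named in the labels of these libraries, and the time from transfection to RNA isolation was not given for them in the sources used here. Each library was made from polyadenylated RNA of a whole culture, so fewer cells of a type and less RNA per cell cannot be told apart.

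AP-1 proteins carry a basic region, which contacts DNA, and a leucine zipper, through which they pair. Jun proteins pair among themselves or with Fos proteins, while Fos proteins depend on a Jun partner, and the pairs bind the sequence known as the TPA response element or, with ATF and CREB relatives, the cAMP response element (CRE). The genes of the family differ in kinetics: Fos and Fosb are classical immediate-early genes, induced within minutes and then shut off, whereas Fosl1 and Fosl2, which encode FRA-1 and FRA-2, are switched on later and are more lasting. Small Maf proteins have a zipper but no activation domain, and their effect depends on a partner such as NRF2 or BACH1. In macrophages AP-1 lies downstream of the MAP kinases and acts with NF-kB and PU.1 on genes for cytokines, chemokines and matrix proteases.

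Levels are in TPM, that is, reads divided by gene length and scaled to a fixed total in each library, so that genes can be compared with each other within a library. Reads on genes numbered 15737100 to 18561568 per library when rebuilt from TPM and gene length, so that for a transcript of 2 kb each read counted as 0.0825 to 0.0959 TPM. Ncoa4 itself stood at 19.7, 22.5 and 22.4 TPM in the controls and at 9.63, 8.60 and 8.88 TPM after NCOA4 siRNA, or 41.9% of control. All 10 macrophage markers were detected, with sums of 8867 to 9046 TPM in the controls and 9193 to 9315 TPM after knockdown. Of these markers 5 changed in limma: Mertk (log2 difference 0.48, adjusted p = 0.00965), Adgre1 (0.61, 0.0248), Csf1r (0.31, 0.0218) and Fcgr3 (0.29, 0.0140) were higher and Cd14 (-0.27, 0.0361) was lower. The part of this shift in the AP-1 and target gene results was not tested. The markers of T cells, B cells, fibroblasts and epithelium lay below a mean of 0.5 TPM and 3 of 3 erythroid markers were at 0, while 1 of 4 neutrophil and 1 of 2 endothelial markers exceeded 0.5 TPM. The neutrophil sum was 19.0 to 25.4 TPM in the controls and 15.5 to 20.4 TPM after knockdown, with Ly6g and Mpo at 0, and the endothelial sum was at most 1.55 TPM. Transcripts of the mitochondrial genome took 12.9% of TPM in control replicate 1 and 9.36% to 10.2% in the others. Genes were tested with limma on log2(TPM + 0.5) and called changed at a Benjamini-Hochberg adjusted p under 0.05 over all 13829 genes with a mean of at least 0.5 TPM. By this rule 750 genes changed, 430 higher and 320 lower, of which 57.3% were higher. When each library was centred on its own median, 348 were higher and 622 lower (35.9% higher), and when a trend with GC content was removed, 481 were higher and 595 lower (44.7% higher).

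Of the 10 AP-1 genes, 8 passed the filter on low values and 2 changed with NCOA4 siRNA, Fosl1 and Jun, both lower. Fosl1 fell to 53.6% and Jun to 71.3% of control, and Fosl1 alone also passed a fold change of 1.5. Among all genes tested, 5.42% changed in either direction, 2.31% changed to a lower and 3.11% to a higher level, and 0.318% were lower by more than 1.5-fold. Maff was lower in all 3 knockdown libraries and Fos higher in all 3, but neither passed the adjusted threshold. Fosl2, Junb, Jund and Mafk overlapped between the groups. Including Fosl1 and Jun, 3 of the 8 genes did not overlap on the lower side, against 11.8% of all genes tested, and 1 on the higher side, against 16.6%. The median log2 difference was -0.26 over the 8 genes and 0.03 over all genes tested. The count of changed AP-1 genes was 4 when control replicate 2 was left out, 3 when control replicate 1 was, and 1 when any given NCOA4 siRNA library was.

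**Figure D1:**
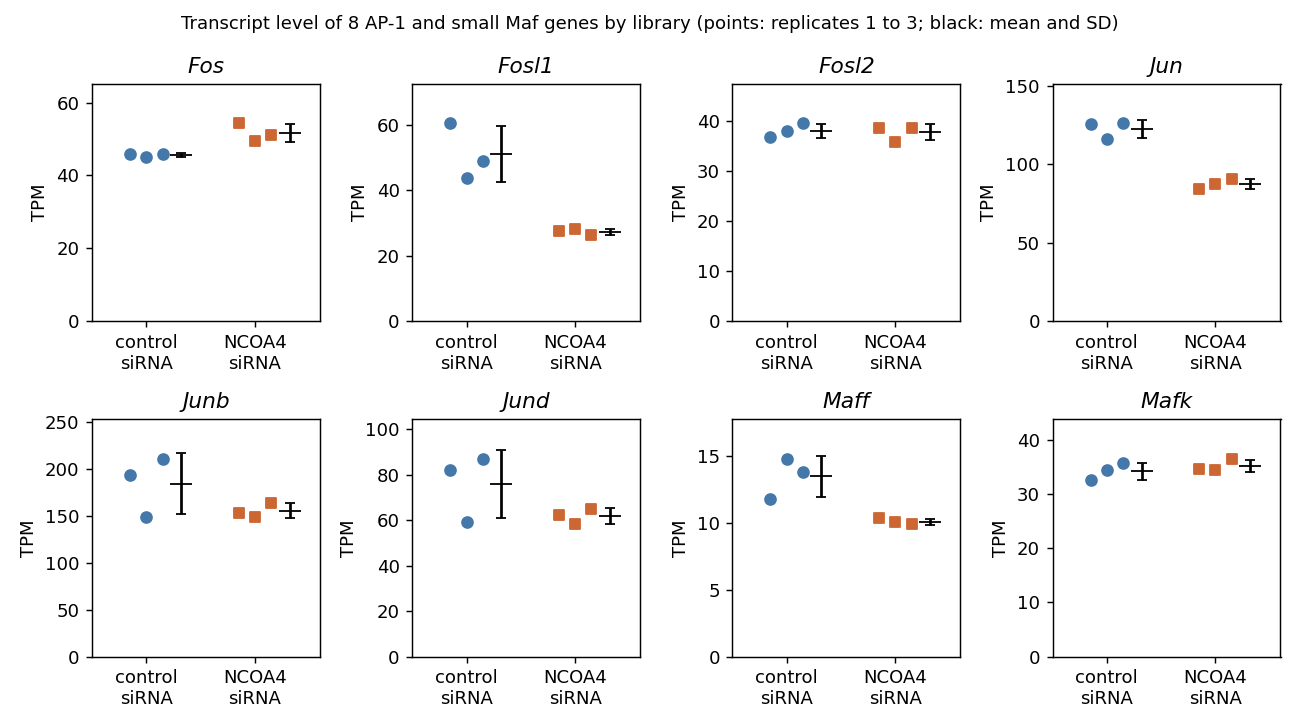
TPM of the 8 AP-1 genes tested in each library, with control siRNA and NCOA4 siRNA side by side. Each library is a point, and a black mark gives each group mean with its SD. Fosl1 and Jun show a gap between the groups, with knockdown levels of 26.4 to 28.3 TPM for Fosl1 and 84.4 to 90.4 TPM for Jun, whereas the points of Fosl2, Junb, Jund and Mafk overlap.

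Fosl1 encodes FRA-1, a Fos-type protein without the strong activation domain of c-Fos, and lies at chr19:5447547-5455946 on the plus strand (GRCm38; ENSMUSG00000024912). It was at 60.6, 43.8 and 48.9 TPM in the control libraries and at 27.4, 28.3 and 26.4 TPM in the NCOA4 siRNA libraries, which rested on 707, 540 and 518 reads and on 324, 313 and 324 reads. The lowest control lay well above the highest knockdown library, and the controls were the more scattered group, with a coefficient of variation of 16.8% where counting alone gives 4.12%. The means were 51.1 ± 8.58 and 27.4 ± 0.927 TPM (SD, n = 3 each). On the log2 scale Fosl1 fell by 0.88 (SE 0.112, 95% confidence interval of the difference -1.14 to -0.61), a 1.84-fold lower level, with an adjusted p of 0.00969 in limma. The exact two-sided permutation test gave p = 0.1, the smallest that 3 libraries against 3 allow. Leaving out NCOA4 siRNA replicate 1, 2 or 3 gave log2 differences of -0.88, -0.90 and -0.85 with adjusted p of 0.0604, 0.0560 and 0.0562, each above the threshold, and the call was kept without any of the control libraries. Ccdc85b, on the opposite strand, overlaps Fosl1 and was at 7.27 and 6.30 TPM on average in control and knockdown cells. Whether the counting used strand was not given in the sources used here, so reads of such overlapping pairs cannot be told apart.

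Fos, the founding member, encodes c-Fos and lies at chr12:85473890-85477273 on the plus strand (ENSMUSG00000021250). It was at 45.9, 45.1 and 45.8 TPM with control siRNA and at 54.3, 49.6 and 51.2 TPM with NCOA4 siRNA. The controls were almost identical and every knockdown library lay above them. The log2 difference was 0.18 (SE 0.0469, interval 0.07 to 0.29), with an unadjusted p of 0.00715 and an adjusted p of 0.0853 in limma, so Fos did not pass the threshold. It did not pass in any of the 17 alternative settings either, whose adjusted p ran from 0.0674 to 0.249.

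Fosl2, which encodes FRA-2, was at 36.7, 37.9 and 39.5 TPM in the controls and at 38.7, 35.9 and 38.6 TPM after knockdown. The groups were interleaved, and the interval of the log2 difference, -0.14 to 0.11 around -0.01 (adjusted p = 0.909, limma), does not reach that of Fosl1. Fosb, the other immediate-early Fos gene, was near the limit of detection: 3, 4 and 5 reads in the controls and 6, 1 and 6 reads after knockdown, or 0.0837, 0.106 and 0.154 TPM against 0.165, 0.0294 and 0.159 TPM. It was not tested, and a difference was not detectable at this depth.

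Seen as a set, the Fos-type genes differed in composition between the groups. Their summed level was 143, 127 and 134 TPM in the controls and 121, 114 and 116 TPM after knockdown. Fosl1 made up 34.5% to 42.3% of this sum in the control libraries and 22.7% to 24.9% in the knockdown libraries (37.7 ± 4.05% and 23.4 ± 1.22%, SD, n = 3 each). The share of Fos went from 33.9 ± 1.76% to 44.2 ± 0.757%. Written as a ratio of levels within each library, which does not depend on scaling between libraries, Fosl1 over Fos was 0.972 to 1.32 with control siRNA and 0.505 to 0.570 with NCOA4 siRNA. These shares describe transcripts and not dimers, and no test was made on them.

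**Figure D2:**
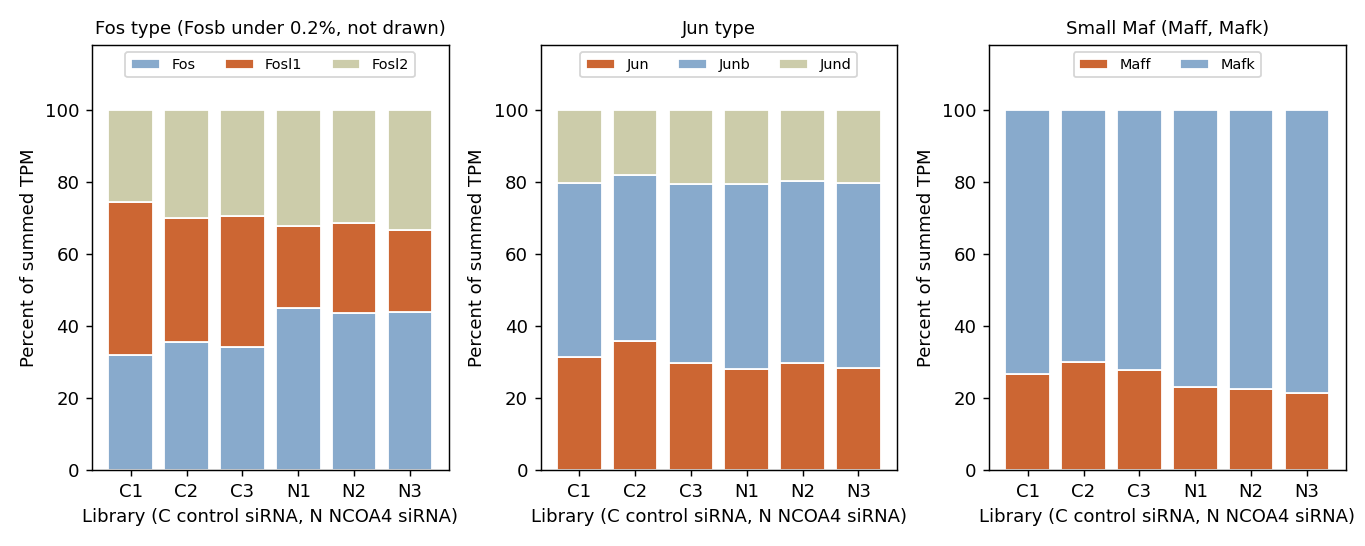
Share of each gene in the summed TPM of its subfamily, in percent, for each of the 6 libraries, with Fosb under the drawn range. Fosl1 takes 34.5% to 42.3% of the Fos-type sum in the control libraries and 22.7% to 24.9% in the NCOA4 siRNA libraries, while the Jun-type shares move less.

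Jun encodes c-Jun, the strongest activator of the Jun type, and is a gene without introns at chr4:95049034-95052222 on the minus strand (ENSMUSG00000052684). The control libraries held 126, 116 and 126 TPM from 2302, 2246 and 2098 reads, and the NCOA4 siRNA libraries 84.4, 87.6 and 90.4 TPM from 1564, 1522 and 1740 reads. Both groups were tight and stood clear of each other. Jun fell by 0.49 on the log2 scale (SE 0.0489, interval -0.60 to -0.37; adjusted p = 0.00466, limma), a 1.40-fold lower level. Its means were 123 ± 5.63 and 87.5 ± 2.99 TPM (SD, n = 3 each), and the exact two-sided permutation test gave p = 0.1. It passed in all 17 alternative settings, with log2 differences from -0.54 to -0.46. The antisense gene Junos, which overlaps Jun, was at 1.51 and 1.66 TPM on average, far below Jun itself.

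Junb and Jund, both partners of Fos proteins and both able to temper c-Jun, behaved unlike Jun in their spread. Junb was the most abundant AP-1 gene, at 194, 149 and 211 TPM with control siRNA and 153, 149 and 164 TPM with NCOA4 siRNA. Jund was at 82.1, 59.1 and 87.2 TPM and then at 62.2, 58.2 and 65.0 TPM. Control replicate 2 lay below all 3 knockdown libraries for Junb and among them for Jund, while the other controls stood above them, so the groups overlapped for both genes. Their log2 differences were -0.23 (SE 0.124, interval -0.52 to 0.06) for Junb and -0.28 (SE 0.141, interval -0.61 to 0.06) for Jund. With adjusted p of 0.335 and 0.310 in limma, neither passed, and both intervals contain the -0.49 of Jun.

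The scatter of Junb and Jund was shared. The coefficient of variation over the controls was 17.4% for Junb and 19.7% for Jund, where counting gives 2.31% and 3.74%, and over the knockdown libraries it was 4.98% and 5.50%. The level of Jund over that of Junb nevertheless stayed between 0.397 and 0.424 in the controls and between 0.390 and 0.407 after knockdown. Without control replicate 2 both genes would be called, Junb at -0.38 with an adjusted p of 0.0421 and Jund at -0.45 with 0.0292 in limma. Each gene passed in this 1 of 17 alternative settings only. Without control replicate 1 they were at -0.19 and -0.22 (adjusted p = 0.507 and 0.497). Without control replicate 3 they were at -0.13 and -0.17 (adjusted p = 0.578 and 0.534). Both transcripts are rich in G and C, at 62.6% and 67.1%. For the 327 genes with at least 60% and a mean of at least 5 TPM, log2 deviations were taken from each gene's mean over all 6 libraries. Their medians were -0.00, -0.07 and 0.08 in control replicates 1 to 3, with control replicate 2 again lowest. In the same libraries Junb deviated from its control mean by 0.09, -0.29 and 0.21 and Jund by 0.13, -0.34 and 0.21, that is, in the same order. The baselines differ, so the sizes are not directly comparable. With a trend in GC content removed from each library the differences were again -0.23 and -0.28, with adjusted p of 0.160 and 0.122. The part of GC content in the scatter was not tested further. By GENCODE M21 positions Junb also overlaps Prdx2 on the opposite strand, which was at 234 and 258 TPM on average. The M21 length of Junb did not give whole reads and was solved for, so its extent in the counting may differ.

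The Jun-type genes together gave 401, 324 and 424 TPM in the controls and 299.7, 295 and 319 TPM after knockdown. Jun made up 29.7% to 35.9% of this sum with control siRNA and 28.2% to 29.7% with NCOA4 siRNA. The summed Jun-type level over the summed Fos-type level was 2.55 to 3.16 in the controls and 2.49 to 2.75 after knockdown, and these ranges overlapped. By mean level the order with control siRNA was Junb, Jun, Jund, Fosl1, Fos, Fosl2, Mafk and Maff. With NCOA4 siRNA it was Junb, Jun, Jund, Fos, Fosl2, Mafk, Fosl1 and Maff, with Fosl1 passing from rank 4 to rank 7. Neighbours whose libraries overlapped were Jund with Fosl1 and Fosl1 with Fos in the controls, and Fosl2 with Mafk after knockdown.

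**Figure D3:**
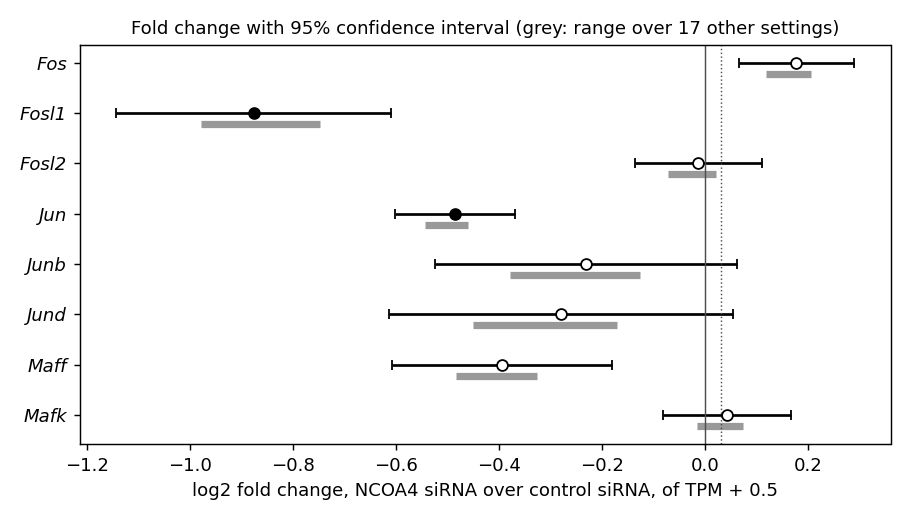
Difference in log2(TPM + 0.5), NCOA4 siRNA minus control siRNA, for the 8 AP-1 genes tested, with 95% confidence intervals from limma. The intervals of Fosl1 (-1.14 to -0.61), Jun (-0.60 to -0.37) and Maff (-0.61 to -0.18) lie below 0. That of Fos (0.07 to 0.29) lies above 0, while those of Junb, Jund, Fosl2 and Mafk include 0. Fosl1 and Jun alone passed the adjusted threshold.

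Maff and Mafk encode small Maf proteins. Maff, an inducible member of the group, was at 11.8, 14.8 and 13.8 TPM from 176, 233 and 187 reads in the controls and at 10.4, 10.0 and 9.90 TPM from 156, 142 and 155 reads after knockdown. The groups did not overlap, and the knockdown libraries were the closer together. The log2 difference was -0.39 (SE 0.0902, interval -0.61 to -0.18), with an adjusted p of 0.0565 in limma. Maff passed in 7 of 17 alternative settings, among them median centring (-0.45, adjusted p = 0.0194) and the fit without control replicate 1 (-0.48, adjusted p = 0.0186), and the adjusted p ran from 0.0186 to 0.184 over all of them. Mafk, the more abundant of the pair, was at 32.5, 34.4 and 35.7 TPM and then at 34.6, 34.5 and 36.6 TPM, interleaved between the groups, with a difference of 0.04 (interval -0.08 to 0.17; adjusted p = 0.686, limma). The share of Maff in the sum of Maff and Mafk was 26.6% to 30.1% in the controls and 21.3% to 23.0% after knockdown.

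Maff was also the 1 AP-1 gene of 10 whose longest annotated 3′ UTR, 1224 bases, holds the 7 bases GAATGCC, a sequence that occurs in every annotated Ncoa4 coding transcript and was looked for because earlier results of these data had raised it. It is present in 6.25% of the 1553 tested genes with a 3′ UTR of 1000 to 1500 bases, and in 9 of the 43 of these that changed to a lower level (20.9%). Because the sequence was raised by these same data, the second share is not an independent test. The sequence of the NCOA4 siRNA was not given in the sources used here, and any part of this stretch in the level of Maff was not tested. The longest annotated 3′ UTRs of Fosl1 and Jun hold no copy, and the rest of their transcripts was not searched.

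Batf, which pairs with Jun proteins in lymphocytes and dendritic cells, was listed at 0 in all 6 libraries. At these depths 3 reads would have been 0.352 to 0.409 TPM, which is the upper limit that a count of 0 allows per library, for counting error only.

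Promoter windows were read to show what sites the AP-1 genes carry upstream of their starts, since Jun is known to be controlled in part by AP-1 and ATF proteins bound at its own promoter. Windows of 250 bases before the start were taken from RefSeq (GRCm38.p6) for 9 of the 10 genes, 11 windows in all, since Maff has 3 starts. Fosl1 was not matched. RefSeq starts need not be the GENCODE M21 starts of the counted genes. For Jund the window, chr8:70697489-70697738 on the plus strand, does not adjoin the M21 gene, which starts at 70698949. The palindromic AP-1 site, searched as TGANTCA on both strands, was in none of the 11 windows and is in 6.75% of the 32851 windows of all genes. The CRE, TGACGTCA, is in 1.55% of all windows and was in 1 of the 11, at Maff. A looser CRE-like search, TGACNTCA on both strands, which includes the CRE itself, matches 7.49% of all windows and 3 of the 11, at Jun and Maff. These 3 windows are printed 5′ to 3′ on the strand of the gene with the match in capitals: Jun at chr4:95052223-95052472 on the minus strand, with the match 45 to 38 bases before the start, and Maff on the plus strand at chr15:79347270-79347519, with the match 29 to 22 bases before the start, and at chr15:79348152-79348401, with the match 45 to 38 bases before it. A match is a run of letters and not a measured binding site.
Jun: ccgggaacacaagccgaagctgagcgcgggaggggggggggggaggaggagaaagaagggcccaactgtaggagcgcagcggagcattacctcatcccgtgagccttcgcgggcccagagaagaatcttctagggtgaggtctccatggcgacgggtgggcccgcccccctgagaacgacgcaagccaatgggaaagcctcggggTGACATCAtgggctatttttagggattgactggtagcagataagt
Maff, start 2: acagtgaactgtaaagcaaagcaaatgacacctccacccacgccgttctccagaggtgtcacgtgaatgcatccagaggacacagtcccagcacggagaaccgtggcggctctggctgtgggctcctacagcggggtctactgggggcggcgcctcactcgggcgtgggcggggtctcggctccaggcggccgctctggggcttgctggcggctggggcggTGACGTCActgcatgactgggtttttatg
Maff, start 3: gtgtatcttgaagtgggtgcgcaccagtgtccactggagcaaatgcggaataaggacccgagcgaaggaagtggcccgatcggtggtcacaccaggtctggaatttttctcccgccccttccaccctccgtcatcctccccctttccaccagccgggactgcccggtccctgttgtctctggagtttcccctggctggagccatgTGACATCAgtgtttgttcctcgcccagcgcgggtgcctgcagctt

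The wider pathway was described with 4 gene lists, read against the 5.42% of all tested genes that changed. Of 33 other bZIP genes and partners, 27 were tested and 3 changed (11.1%). Maf, the large Maf factor of macrophages, rose from 36.1 ± 0.112 to 57.9 ± 2.05 TPM (log2 difference 0.67, adjusted p = 0.0013, limma). Atf4, the effector of the integrated stress response, fell from 456 ± 14.7 to 374 ± 4.33 TPM (-0.29, adjusted p = 0.0116). Atf3, a stress-induced partner of Jun proteins, fell from 123 ± 7.94 to 98.8 ± 5.45 TPM (-0.31, adjusted p = 0.0396). The list's median was -0.02. With any NCOA4 siRNA library left out, the count was 1.

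Upstream, the list of kinases and SRF factors that feed into Fos and Jun held 31 genes, of which 29 were tested and 0 changed in limma. At an unadjusted p under 0.05 there were 7 (24.1%), against 21.6% of all genes tested, and limma-voom on rebuilt reads called 3, where it called 10.9% of all genes. The median was 0.04. Its 2 most abundant genes were Mapkapk2, the kinase activated by p38, at 309.97 ± 27.3 and 321 ± 6.42 TPM (0.05, adjusted p = 0.688), and Mapk3, which encodes ERK1, at 175 ± 11.2 and 186 ± 3.51 TPM (0.09, adjusted p = 0.385). The call count was 1 without control replicate 1 and 2 without control replicate 2.

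Of 25 other immediate-early genes, which share signal inputs with Fos, 22 were tested and 2 changed (9.09%), with a median of 0.05. Btg2, an antiproliferative gene, rose from 5.30 ± 0.692 to 12.6 ± 0.715 TPM (1.18, adjusted p = 0.0028, limma). Klf6, a zinc finger factor, fell from 69.5 ± 2.29 to 60.9 ± 0.968 TPM (-0.19, adjusted p = 0.0498). The count was 1 when control replicate 2, control replicate 3 or any NCOA4 siRNA library was left out.

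Among 34 textbook target genes of AP-1, 28 were tested and 11 changed (39.3%), 10 lower and 1 higher, and the median was -0.14. The groups did not overlap for 16 of the 28 on the lower side, against 11.8% of all genes tested. On the higher side this held for 4 of the 28, against 16.6% of all genes tested. Ccl3 and Ccl4 were known to be lower when the list was written. Without them 9 of 26 changed, 8 lower, with a median of -0.12. The rest of the list was also written with earlier results of these data known, so neither count is an independent check. The count was 6 without control replicate 3 and 3, 3 and 2 without NCOA4 siRNA replicates 1 to 3.

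In this list Ccl3 fell from 1348 ± 141 to 698 ± 55.2 TPM (-0.95, adjusted p = 0.0039, limma) and Ccl4 from 425 ± 25.9 to 222 ± 9.30 TPM (-0.93, adjusted p = 0.0013), both past 1.5-fold. These chemokine genes had the largest differences of the changed target genes. Ccl2, the monocyte attractant, fell from 668 ± 46.9 to 473 ± 35.0 TPM (-0.50, adjusted p = 0.0143). Plau, which encodes urokinase and has AP-1 sites in its enhancer, fell from 699 ± 68.0 to 472 ± 14.1 TPM (-0.56, adjusted p = 0.0102). Spp1, or osteopontin, fell from 5445 ± 638 to 3668 ± 59.3 TPM (-0.56, adjusted p = 0.0187). Il1a, the alarmin cytokine gene, rose from 22.04 ± 1.03 to 31.2 ± 2.15 TPM (0.49, adjusted p = 0.0121). Other lower genes, named after their values were seen, included Ccnd1, Lmna, Hmox1 and Plaur, with log2 differences from -0.39 to -0.20. Also named in this way, Il1b and Nos2 were higher with no overlap between the groups but did not pass. Il1b was at 2.63 ± 0.614 and 4.80 ± 1.45 TPM (0.74, adjusted p = 0.155, limma). Nos2, at low levels, was at 0.752 ± 0.108 and 1.43 ± 0.332 TPM (0.61, adjusted p = 0.170, limma). Whether the level of any target follows that of Fosl1 or Jun was not tested.

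**Figure D4:**
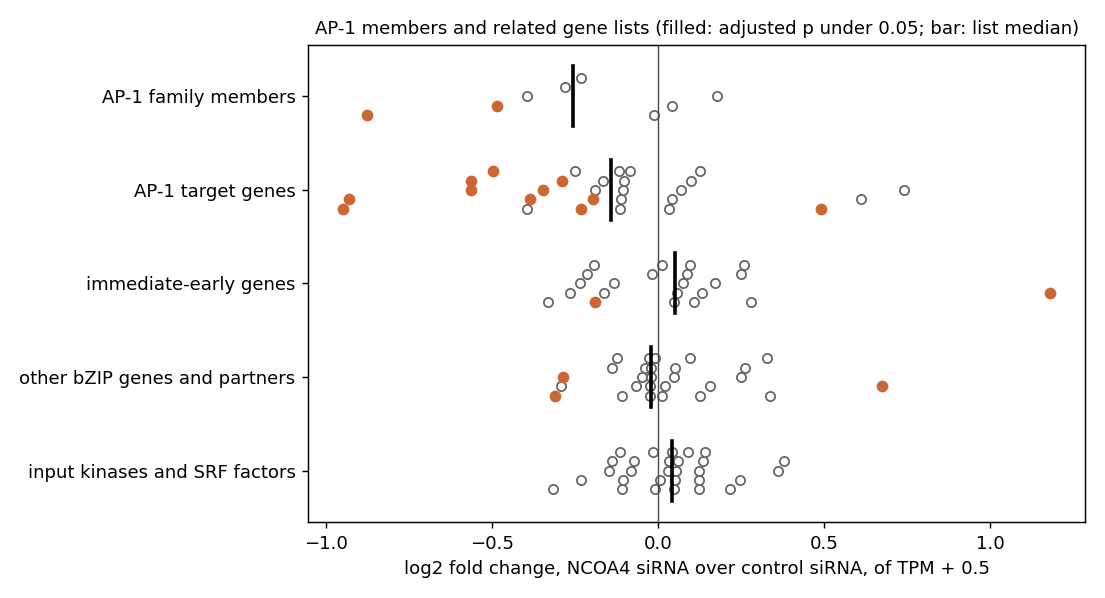
Difference in log2(TPM + 0.5), NCOA4 siRNA minus control siRNA, for each tested gene of the 4 lists and of the AP-1 genes, with the changed genes marked and a line at each median. The AP-1 target genes hold 11 changed genes of 28 and a median of -0.14, against 0 of 29 and 0.04 for the kinases and SRF factors.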

How the data were processed

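RNA-seq libraries of J774 cells (3 control siRNA, 3 NCOA4 siRNA) were used. The authors deposited TPM per gene for each library, with no scaling between libraries. The submitters' processing notes name Trimmomatic 0.33, HISAT2 2.1.0, FastQC, featureCounts, edgeR and the build mm10. Symbols and positions came from GENCODE M21 for 55227 of 55487 identifiers. Reads rebuilt from TPM and gene length were whole (within 0.02) for 99.4% of 21055 genes, of which 168 had their length solved for, and gave the depth and an alternative test. Genes with a mean of at least 0.5 TPM were tested with limma 3.58.1 (R 4.3.3) on log2(TPM + 0.5), lmFit and eBayes with a trend, two-sided, with Benjamini-Hochberg adjustment. A fold change on this scale understates that of low genes. The fit was tested on simulated data. The alternatives took another pseudocount (1 or 0.1), filter (none, or 5 TPM), scaling (median centring, quantiles, mitochondrial genes removed) or variance model (eBayes without a trend, limma-voom), the replicate number as a block, each library left out, and, chosen after seeing the data, removal of a GC trend. The genes named are the 10 AP-1 genes, Ncoa4, up to 6 changed genes of each list with the smallest adjusted p (the 2 with the highest mean TPM where fewer than 2 changed), and the 3 genes most like Jun and Fos. A gene picked in this way is not reported here. The AP-1 genes and the lists were chosen with earlier results of these data known. Replicates are labelled as biological.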

Additional observations from a re-analysis of the deposited data

How the results depend on the processing

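Jun kept its direction and its call in all 17 alternative settings and Fosl1 in 14, the exceptions being the fits without an NCOA4 siRNA library. No pairing by replicate number was seen: deviations from group means correlated at 0.03, -0.06 and 0.06 between same-numbered libraries. The labels do not say whether same-numbered cultures were handled together. With the replicate number as a block, 2 AP-1 genes changed as before. In all, 161 genes changed, against 750. These held 5 target genes against 11, 1 other bZIP gene against 3 and 1 immediate-early gene against 2. For all tested genes, no filter gave 499, eBayes without a trend 404, limma-voom 1502, and leaving out a library 127 to 807. The AP-1 count was 1 to 4 with a library left out. For other bZIP genes limma-voom gave 6, the GC trend removed 5, and leaving out a library 1 to 3. For the kinases and SRF factors the pseudocount of 0.1 gave 1, a mean TPM of at least 5 gave 1, median centring 2, quantile normalization 1, eBayes without a trend 1, limma-voom 3, the GC trend removed 2, and leaving out a library 0 to 2. For immediate-early genes the pseudocount of 0.1 gave 1, no filter 1, limma-voom 5, the GC trend removed 4, and leaving out a library 1 to 3. For target genes no filter gave 7, eBayes without a trend 6, and leaving out a library 2 to 10. The log2 fold change of Fosl2 turned to 0.01 when control replicate 3 was left out and to 0.022 when NCOA4 siRNA replicate 2 was, its range over the libraries left out being -0.039 to 0.022, and the log2 fold change of Mafk turned to -0.015 under median centring. The causes were not tested. Depth limits Fosb and Batf, which rest on at most 6 reads a library.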

Other observations

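Genes whose level ran most closely with Jun over the 6 libraries, among 10038 with a mean of at least 5 TPM, included Mybl2 (Pearson r = 0.996) and Nomo1 (0.994), and with Fos they were Ist1 (0.997), Cd82 (0.990) and Nrbp1 (0.988). These values describe 6 libraries of 2 groups, and genes that differ between the groups share that difference.

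Mafg and partners of the small Maf proteins, named after their values were seen, did not pass the test. Mafg, the small Maf gene outside the 10, was at 67.6 ± 2.73 and 68.7 ± 1.53 TPM with control and NCOA4 siRNA (log2 difference 0.02, adjusted p = 0.818, limma). Nfe2l2, which encodes NRF2, was at 155 ± 0.873 and 152 ± 3.82 TPM (-0.03, adjusted p = 0.688). Nfe2l1, from the same list of bZIP genes, was at 73.9 ± 2.26 and 68.5 ± 1.54 TPM (-0.11, adjusted p = 0.195, limma), with no overlap between the groups. Bach1, a repressor that NRF2 competes with, was at 20.2 ± 1.34 and 24.2 ± 1.39 TPM (0.26, adjusted p = 0.0881), with no overlap between the groups.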
